A study of Mus musculus with 8 samples.

Results

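The messenger RNAs of pre-mRNA splicing factors and RNA helicases were examined in whole spinal cords of mice with experimental autoimmune encephalomyelitis (EAE), an inflammatory demyelinating disease induced by immunization with a myelin peptide. Members were chosen by gene symbol alone: a probe set of the Affymetrix MG U74Av2 array, that is, a group of short probes for 1 transcript, was taken where its annotation gave 1 symbol of the families Srsf, Hnrnp, Snrp, Prpf, Lsm, Sf1, Sf3a, Sf3b, U2af, Ddx, Dhx, Ptbp, Celf, Rbfox, Nova or Elavl. Ddx3y was left out. This gave 140 of 12422 probe sets and 101 of 8251 genes, with 69 genes measured by 1 probe set and 32 by several. A further 8 probe sets with such symbols carried several symbols and were not taken.

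All mice were female SJL/J mice of 8 to 12 weeks by the labels. EAE was induced with PLP peptide, a fragment of myelin proteolipid protein, and controls received vehicle. Each array held RNA pooled from 2 animals, so that the 5 EAE arrays stand for 10 mice and the 3 control arrays for 6. EAE arrays 1 to 5 came from mice with an average grade of 2.5, killed on day 14, days 12 to 14, day 17, day 14 and day 15.5 of EAE. By the labels EAE mice also received murine serum albumin into a vein shortly before they were killed, and no such injection is named for controls, so its effect and that of EAE cannot be told apart. The paper's methods also name Freund's adjuvant with mycobacteria and pertussis toxin for EAE induction, and call the comparison mice healthy controls. Where controls did not receive these, their effect cannot be told apart from that of EAE either. Batches were days of processing: batches 1, 2 and 3 each held 1 EAE and 1 control array of the same number, while EAE arrays 4 and 5 stood alone in batches 4 and 5. Values are log2 signals, on which a difference of 1 is a doubling. Differences were fitted with limma with treatment and batch as terms, over all 12422 probe sets, and a probe set was called at an adjusted p under 0.05. With batch in the model the difference rests on the pairs of batches 1 to 3.

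Splicing removes introns from the primary transcript. Small nuclear ribonucleoproteins (snRNPs) assemble on the splice sites, the branch point is bound by Sf1 and then by the Sf3a and Sf3b complexes, and U2af recognises the 3′ splice site. SR proteins mostly promote and hnRNP proteins often repress the use of an exon, and RNA helicases of the DEAD-box and DEAH-box families remodel RNA at each step and in ribosome assembly, translation and decay. Proteins of the Elavl (Hu), Ptbp, Celf and Rbfox families tune splicing or mRNA stability by cell type. Elavl1 (HuR) is found in nearly all cells, whereas Elavl2, Elavl3 and Elavl4 are proteins of neurons and are used as markers of them.

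The neuronal Elavl messages fell in EAE while the ubiquitous Elavl1 rose. In the Ptbp family Ptbp3 rose, and Ptbp2 was lower by its brighter probe set only. The groups of that Ptbp2 probe set overlapped, and its call was lost without the batch term. Most SR, snRNP, Sf3 and helicase members did not pass the test. Of the 140 members 2 were higher in EAE (1.43%, against 8.26% of all probe sets) and 17 were lower (12.1%, against 11.4% of all probe sets). The share of lower members was thus near that of the array as a whole, and the share of higher members was below it. Without an array of batch 1 the lower members were 6.43%, against 7.91% of all probe sets. Without an array of batch 2 they were 7.86% against 4.6%, and without an array of batch 3 they were 2.86% against 1.81%. Counted with the brightest probe set of each gene, 2 of 101 genes were higher (9.19% of all genes measured) and 15 were lower (13.5% of all genes).

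The members were brighter than the array as a whole, with a median mean signal of 6.92 against 6.12, and 104 of them lay in the brighter part of the probe sets, cut at the median. In this brighter part 2 members were higher (1.92%, against 10.9% of the brighter probe sets) and 17 lower (16.3%, against 18.6%). The EAE arrays lay above every control array for 5 of 140 members (3.57%, against 10.9% of all probe sets) and below every control array for 21 (15.0%, against 15.1%). The median difference was -0.08 for the members and -0.05 for all probe sets. From the 5th to the 95th percentile the differences ran from -0.57 to 0.26 for the members and from -0.53 to 0.69 for all probe sets. Only Elavl3 and Ptbp3 differed by 1 or more on the log2 scale, 1.43% of the members against 3.78% of all probe sets.

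**Figure D1:**
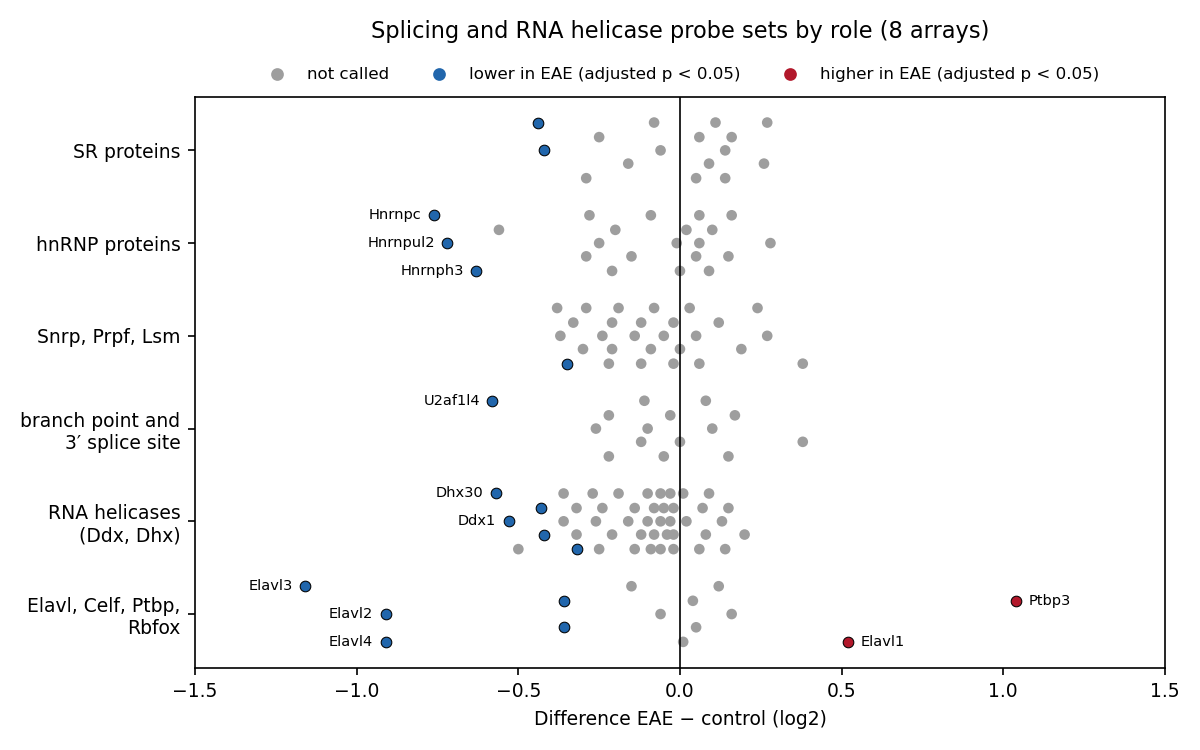
Difference between EAE and control (log2, batch-adjusted) of each of the 140 member probe sets, 1 point each, by role. Blue points were lower and red points higher at an adjusted p under 0.05, and grey points were not called. Elavl3 lies farthest to the left at -1.16 and Ptbp3 farthest to the right at 1.04.

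Among regulators of alternative splicing and mRNA stability, 14 probe sets of 10 genes, 5 were lower (35.7%, against 11.4% of all probe sets) and 2 higher (14.3%, against 8.26%). The 5′ flanks of Elavl1 and Elavl3 are shown because these members of 1 family moved in opposite directions and have a single promoter window each in the RefSeq table of GRCm38.p6. Both genes lie on the minus strand. The windows are the 250 bases before the annotated start, chr8:4325101-4325350 for Elavl1 and chr9:22052024-22052273 for Elavl3. Predicted transcripts in the gene table start further upstream, so that 40 bases of the Elavl1 window and 123 bases of the Elavl3 window lie within the widest extent of the gene. Capitals mark GGGCGG (a GC box), the CCAAT box and the TATAAA box, searched on both strands.
Elavl1: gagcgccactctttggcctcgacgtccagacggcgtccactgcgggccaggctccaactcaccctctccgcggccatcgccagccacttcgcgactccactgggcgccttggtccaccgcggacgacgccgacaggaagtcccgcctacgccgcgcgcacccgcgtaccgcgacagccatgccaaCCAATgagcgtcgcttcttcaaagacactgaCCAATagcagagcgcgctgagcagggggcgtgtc
Elavl3: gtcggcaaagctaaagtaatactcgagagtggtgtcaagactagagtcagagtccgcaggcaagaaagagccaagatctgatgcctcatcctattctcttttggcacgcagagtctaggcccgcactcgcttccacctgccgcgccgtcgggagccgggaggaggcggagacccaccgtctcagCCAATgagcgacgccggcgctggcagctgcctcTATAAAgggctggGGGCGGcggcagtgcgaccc
The Elavl1 window held 2 CCAAT, and the Elavl3 window held 1 CCAAT box, 1 TATAAA and 1 GGGCGG. Of all 32851 windows of this length, 33.8% held CCAAT, 12.4% TATAAA and 32.7% GGGCGG. The windows held 31 and 20 CpG dinucleotides, against a median of 6 over all windows. The arrays measured transcripts and say nothing of how these flanks are used.

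Elavl3 (HuC) showed the largest fall of all members. Its log2 signal was 5.99, 5.76, 6.14, 5.59 and 5.81 in EAE arrays 1 to 5 and 6.97, 7.22 and 7.17 in control arrays 1 to 3. Every EAE array lay below every control array, by 0.83 at the closest. The difference was -1.16 (standard error 0.115, adjusted p = 0.00437 from limma), that is, 44.8% of the control level (95% confidence limits 36.5% and 54.9%). Elavl3 ranked 20 among all falls on the array by size.

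Elavl2 (HuB) had a log2 signal of 7.01, 7.09, 6.87, 6.91 and 7.40 in EAE arrays 1 to 5 and 8.13, 7.96 and 7.61 in control arrays 1 to 3. The groups did not overlap, although EAE array 5 and control array 3 came within 0.21 of each other. The difference was -0.91 (standard error 0.0941, adjusted p = 0.00492 from limma). Elavl4 (HuD) had a log2 signal of 6.08, 6.33, 5.84, 6.10 and 6.55 in EAE arrays 1 to 5 and 6.90, 7.24 and 6.82 in control arrays 1 to 3. Here too all EAE arrays were below all control arrays, with EAE array 5 the highest of its group. The difference was -0.91 (standard error 0.0697, adjusted p = 0.00205 from limma), so that both messages were at 53.3% of the control level. Within batches 1, 2 and 3 the difference was -0.98, -1.46 and -1.03 for Elavl3, -1.12, -0.87 and -0.74 for Elavl2 and -0.82, -0.92 and -0.99 for Elavl4. The calls of these 3 members held whichever array was left out.

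Elavl1 (HuR), which binds AU-rich elements and stabilises many messages of inflammation, moved the other way. Its log2 signal was 7.12, 7.33, 6.92, 7.29 and 7.18 in EAE arrays 1 to 5 and 6.76, 6.60 and 6.46 in control arrays 1 to 3. All EAE arrays lay above all control arrays, with EAE array 3 the lowest of its group. The difference was 0.52 with a standard error of 0.0924 (adjusted p = 0.0212 from limma), 1.43-fold above control (95% confidence limits 1.21 and 1.69). Within batches 1, 2 and 3 it was 0.36, 0.72 and 0.46. The call was lost when an array of batch 2 or of batch 3 was left out. For each of the 4 Elavl genes the exact permutation p over the 56 regroupings of 8 arrays was 0.0179, the smallest that these allow. These genes were named for calls without overlap between the groups, so a small p largely followed from that choice. The permutation also ignores the batches and adds no support of its own.

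Ptbp3, a polypyrimidine tract-binding protein first described in blood-forming cells, showed the largest rise of all members. Its log2 signal was 7.68, 7.13, 7.60, 7.50 and 7.57 in EAE arrays 1 to 5 and 6.47, 6.42 and 6.42 in control arrays 1 to 3. The lowest EAE array, number 2, was still 0.66 above the highest control array. The difference was 1.04 (standard error 0.120, adjusted p = 0.00668 from limma), 2.05-fold above control (95% confidence limits 1.66 and 2.54), and ranked 407 among all rises. Within batches 1, 2 and 3 it was 1.21, 0.71 and 1.18. The call was lost without EAE array 3 or control array 3.

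Ptbp2, the paralog that takes the place of Ptbp1 in developing neurons, was measured by 2 probe sets. The brighter one had a log2 signal of 8.25, 8.06, 7.75, 8.16 and 7.93 in EAE arrays 1 to 5 and 8.54, 8.40 and 8.18 in control arrays 1 to 3. EAE array 1 lay above control array 3, so the groups overlapped, while within each batch the EAE array was lower, by -0.29, -0.34 and -0.44. The difference was -0.36 (standard error 0.0681, adjusted p = 0.0254 from limma), and it did not pass without the batch term or without an array of batches 1 to 3. The dimmer probe set was at -0.15 and was not called (adjusted p = 0.482 from limma).

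Celf4, a neuronal member of the CUG-binding Celf family that was named after its values were seen, had a log2 signal of 9.36, 9.28, 9.08, 9.32 and 9.36 in EAE arrays 1 to 5 and 9.73, 9.69 and 9.37 in control arrays 1 to 3. The groups did not overlap, but the highest EAE arrays and control array 3 were only 0.01 apart. The difference was -0.36 (standard error 0.0660, adjusted p = 0.0227 from limma), and it too did not pass without the batch term or without an array of batches 1 to 3. This probe set is of a type that can also bind other members of a gene family. The remaining 6 probe sets of this group, for Celf1, Celf2 and Rbfox2, were at -0.06 to 0.16 and none was called.

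**Figure D2:**
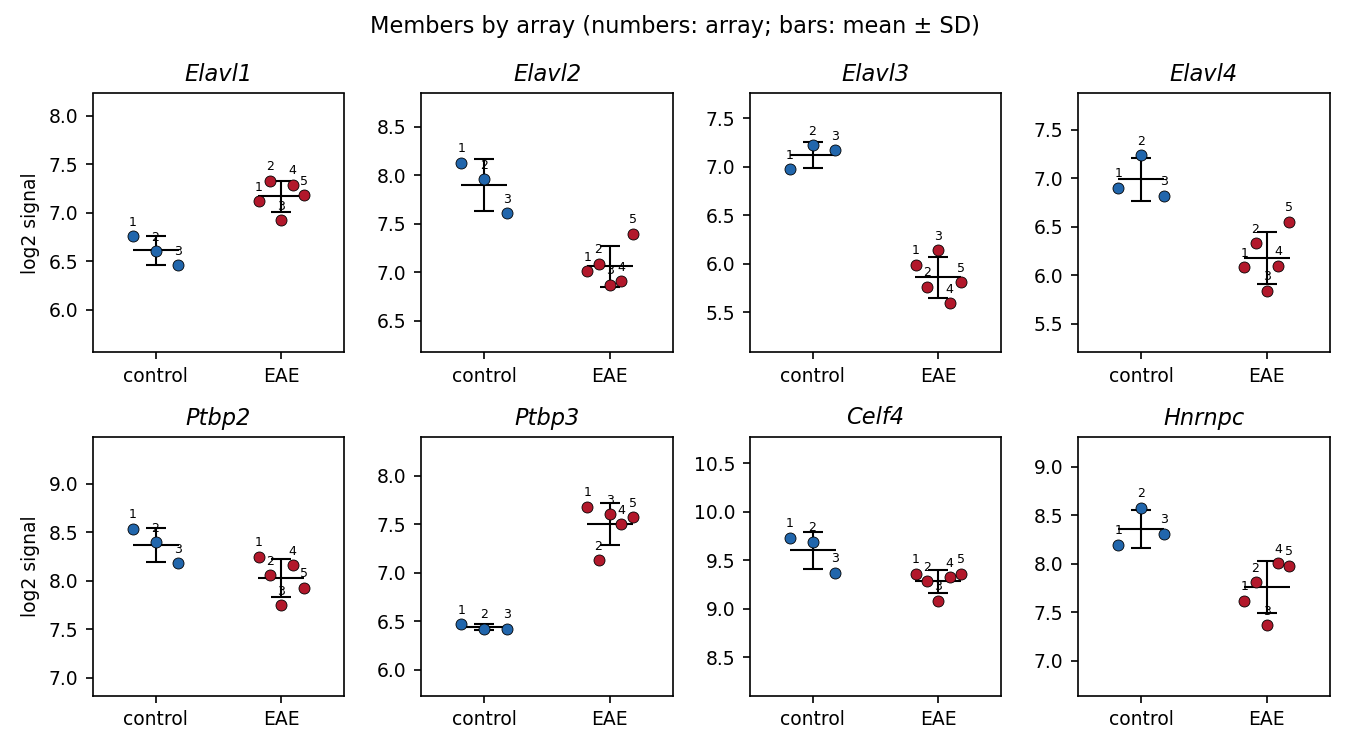
Log2 signal of 8 called members on each array, with control arrays in blue and EAE arrays in red, numbered within each group, and bars for the mean and SD (n = 3 control and n = 5 EAE arrays). Each panel spans the same range of log2 units. Elavl2, Elavl3, Elavl4 and Hnrnpc lie lower in all EAE arrays, Elavl1 and Ptbp3 lie higher in all of them, and for Ptbp2 the groups overlap.

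Markers of cell types also differed between EAE and control arrays. With 1 probe set a gene, 13.5% of all genes were lower and 9.19% higher. In bulk tissue, fewer cells of a type and less RNA per cell cannot be told apart. Of 8 neuronal markers measured, 4 were lower (Slc32a1, Nefh, Stmn2 and Snap25) and 0 higher, with a median difference of -0.59. Their mean log2 signal was 8.59 to 9.12 in EAE arrays and 9.66 to 9.78 in controls. The mean of the 17 lower members was 7.26 to 7.48 in EAE arrays and 7.86 to 8.01 in controls. Within batches 1, 2 and 3 the lower members differed by -0.56, -0.57 and -0.61 and the neuronal markers by -0.80, -0.73 and -0.54. EAE arrays 4 and 5, which have no control in their batch, lay at -0.48 and -0.56 relative to the control mean for the lower members and at -0.81 and -1.11 for the neuronal markers. EAE array 3 was the lowest EAE array for the lower members (-0.70) and the highest for the neuronal markers (-0.58). Control array 3, of the same batch, was likewise the lowest control for the lower members (-0.09). Among the neuronal markers Nefm spread most widely in EAE arrays, from 6.05 to 9.63, and was not called.

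Of 8 markers of macrophages and microglia 7 were higher, with a mean of 8.03 to 8.59 in EAE arrays and 5.98 to 6.04 in controls. Markers of T cells were higher for 2 of 6 (5.61 to 5.66 against 5.27 to 5.42), of neutrophils for 2 of 4 (6.67 to 7.22 against 4.78 to 4.84) and of dividing cells for 3 of 6 (6.69 to 7.12 against 6.46 to 6.51). Myelin markers were lower for 2 of 6 (8.43 to 8.92 against 9.23 to 9.50), and of 4 astrocyte markers 1 was higher and 1 lower. None of 3 B cell or 3 skeletal muscle markers was called, the latter at 4.90 to 5.36 in EAE and 4.96 to 5.01 in control arrays. Homeobox genes of spinal cord position were at 6.95 to 7.12 and 7.38 to 7.42, with 2 of 5 lower. Some of these counts rested on single batches. Without an array of batch 1 or 2 no marker of dividing cells was called, and without the batch term 5 were higher. The lower neuronal markers numbered 2 without an array of batch 3 and 6 without an array of batch 2 or without the batch term. Without an array of batch 2 no gene of spinal cord position was called, and without an array of batch 3 the markers of T cells had 1 higher gene and those of astrocytes 0 lower. The counts of the macrophage, neutrophil and myelin lists did not change when an array was left out or without the batch term. The part of cell composition in the changes of the members was not tested.

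**Figure D3:**
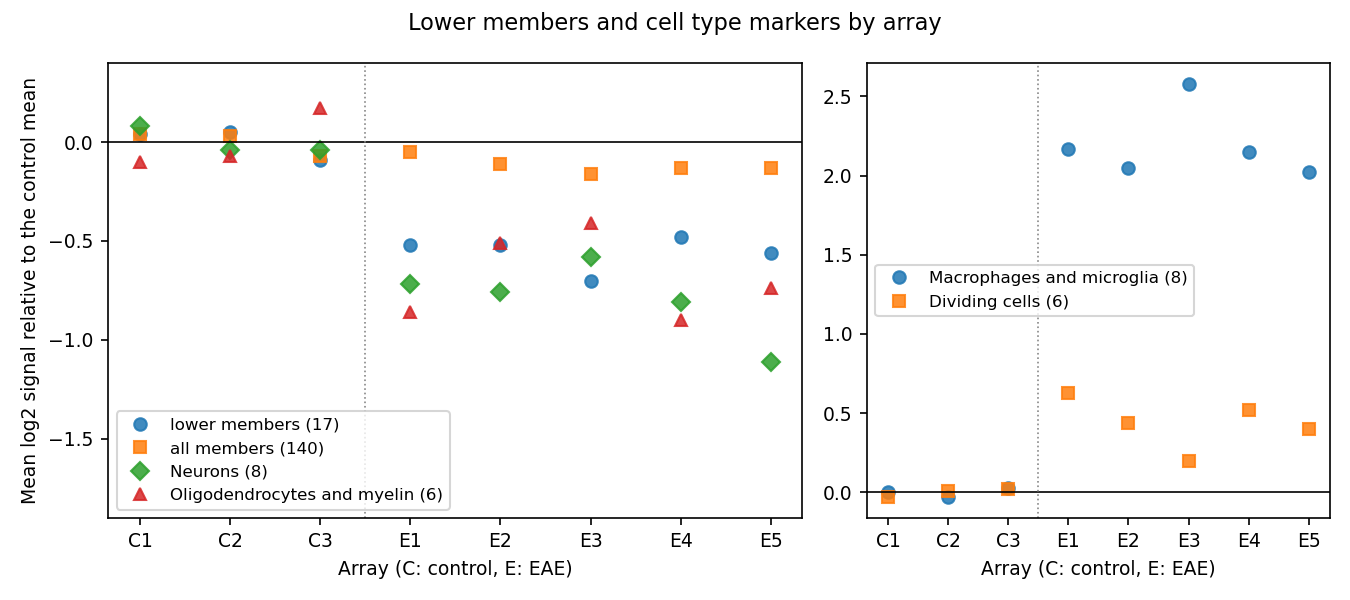
Mean log2 signal of the 17 lower members, of all 140 members and of marker lists by array, with the control mean set to 0 (C, control; E, EAE; number of probe sets in parentheses). The lower members were chosen by the same comparison and are shown as a description. They lie between -0.70 and -0.48 in EAE arrays, the neuronal markers between -1.11 and -0.58 and the macrophage and microglia markers between 2.02 and 2.58.

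RNA quality also differed between arrays. For Gapdh the 3′ control probe set exceeded the 5′ one, a gap that grows as RNA degrades, by 1.46 in EAE array 1 and by 2.07 in EAE array 4 on the log2 scale. EAE arrays 2, 3 and 5 had values of 0.46 to 0.78 and controls of 0.53 to 0.97. For beta-actin the same difference was 2.35, 1.63, 1.11, 2.79 and 1.83 in EAE arrays 1 to 5 and 2.20, 2.29 and 1.62 in control arrays 1 to 3. By this gene EAE array 4 stood above all controls, EAE array 1 hardly so, and EAE array 3 lay below them. The mean of the 17 lower members was 7.44 and 7.48 in EAE arrays 1 and 4 and 7.26 to 7.44 in EAE arrays 2, 3 and 5. With 2 changes at once, leaving out EAE arrays 1 and 4 and the batch term, 4 members were higher (2.86%, against 7.99% of all probe sets) and 14 lower (10.0%, against 8.41%). The part of RNA quality in the differences was not tested.

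The hnRNP proteins coat nascent transcripts and steer splicing, export and decay. Of 22 probe sets of 16 genes 3 were lower (13.6%, against 11.4% of all probe sets) and 0 higher, and the EAE arrays lay below all controls for 7 (31.8%, against 15.1%). Hnrnpc, which binds uridine tracts of nascent RNA, had a log2 signal of 7.62, 7.81, 7.37, 8.01 and 7.98 in EAE arrays 1 to 5 and 8.20, 8.58 and 8.31 in control arrays 1 to 3. EAE arrays 4 and 5 came closest to the controls without reaching them. The difference was -0.76 (standard error 0.0897, adjusted p = 0.00695 from limma), and the call was lost without EAE array 3 or control array 3.

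Hnrnpul2, a relative of the nuclear scaffold protein Hnrnpu, had a log2 signal of 6.78, 6.93, 6.94, 7.06 and 6.95 in EAE arrays 1 to 5 and 7.65, 7.69 and 7.46 in control arrays 1 to 3. The EAE arrays were tightly grouped, all at least 0.40 below the controls. The difference was -0.72 (standard error 0.0908, adjusted p = 0.00845 from limma). This call held whichever array was left out. A dimmer probe set of Hnrnpul2 was at -0.20 and was not called. Hnrnph3, of the hnRNP H family that binds runs of guanine, had a log2 signal of 7.23, 6.63, 6.62, 6.79 and 6.27 in EAE arrays 1 to 5 and 7.52, 7.48 and 7.38 in control arrays 1 to 3. Its EAE arrays spread over almost 1 log2 unit, with array 1 nearest to the controls. The difference was -0.63 (standard error 0.125, adjusted p = 0.0277 from limma), and it did not pass without an array of batch 2 or 3. The other hnRNP probe sets lay between -0.56 and 0.28. They include the 2 probe sets of Hnrnpa2b1, named after their values were seen, a protein that also guides the transport of RNA along processes of neural cells. These were at -0.29 (adjusted p = 0.0892) and 0.28 (adjusted p = 0.104 from limma), and neither was called.

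SR proteins bind enhancer elements in exons and recruit the splicing machinery. Of 16 probe sets of 9 genes 2 were lower (12.5%, against 11.4% of all probe sets) and 0 higher, and the group had a median difference of 0.05. Srsf1, the SR protein also known as SF2/ASF, had 4 probe sets. The brightest had a log2 signal of 7.0, 7.04, 6.72, 6.99 and 6.87 in EAE arrays 1 to 5 and 7.40, 7.31 and 7.32 in control arrays 1 to 3, and was called lower at -0.42 (standard error 0.0869, adjusted p = 0.0301 from limma). All its EAE arrays lay below all controls, but the call was lost whichever array of batches 1 to 3 was left out. The other 3 probe sets of Srsf1 were at -0.06, 0.16 and 0.09 and none was called.

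Srsf3 (SRp20), the smallest of the classical SR proteins, was called lower by its dimmer probe set, at 6.19, 6.24, 5.95, 6.27 and 6.39 in EAE arrays 1 to 5 and 6.54, 6.71 and 6.44 in control arrays 1 to 3. The groups did not overlap, with EAE array 5 and control array 3 only 0.05 apart. The difference was -0.44 (standard error 0.0683, adjusted p = 0.0147 from limma), and it did not pass without an array of batch 2 or 3. The brighter probe set was at 0.11 and was not called (adjusted p = 0.586 from limma). The remaining SR probe sets, for Srsf2, Srsf4, Srsf5, Srsf6, Srsf9, Srsf10 and Srsf11, lay between -0.29 and 0.27.

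The Snrp, Prpf and Lsm symbols, which include proteins of the snRNPs and the tri-snRNP, had 28 probe sets of 24 genes. They also take in Lsm1, a protein of mRNA decay in the cytoplasm, Lsm14a and Lsm14b, proteins of cytoplasmic RNA granules, and Prpf19, of a complex of its own. Of these 28 probe sets 1 was lower (3.57%, against 11.4% of all probe sets) and 0 higher, and all lay between -0.38 and 0.38. Prpf6, a protein that bridges the parts of the tri-snRNP, had a log2 signal of 8.45, 8.23, 8.32, 8.59 and 6.93 in EAE arrays 1 to 5 and 8.71, 8.69 and 8.64 in control arrays 1 to 3. EAE array 5 stood 1.30 below the next EAE array. It has no control in its batch and does not enter the difference of -0.35 (standard error 0.0720, adjusted p = 0.0310 from limma), which was no longer called without the batch term or when any array of batches 1 to 3 was left out. The pair of Prpf19 probe sets, a ubiquitin ligase needed to activate the spliceosome and named after their values were seen, came close at -0.38 and -0.37 (adjusted p = 0.0523 and 0.0590 from limma). A member of the U1 snRNP symbols, Snrp1c-ps2, is a pseudogene by its symbol and was at 0.03.

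Of 15 probe sets of 12 genes for recognition of the branch point and the 3′ splice site 1 was lower (6.67%, against 11.4% of all probe sets) and 0 higher. U2af1l4, a paralog of the small U2af subunit, had a log2 signal of 6.38, 6.98, 6.68, 6.60 and 6.96 in EAE arrays 1 to 5 and 7.22, 7.24 and 7.31 in control arrays 1 to 3. The controls lay within 0.09 of each other and above all EAE arrays. The difference was -0.58 (standard error 0.124, adjusted p = 0.0332 from limma), and it did not pass without an array of batch 1 or 3. U2af1 and U2af2, the subunits of U2af itself, were at -0.22 and -0.10 and were not called. Sf3b1, the largest subunit of the complex that holds the branch point and named after its values were seen, had a brighter probe set at 8.17, 8.01, 8.08, 8.18 and 8.13 in EAE arrays 1 to 5 and 7.78, 7.84 and 7.51 in control arrays 1 to 3. Its groups did not overlap and the difference was 0.38 (standard error 0.0952), just outside the threshold (adjusted p = 0.0517 from limma), while its dimmer probe set was at 0.08.

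RNA helicases were the largest group, with 45 probe sets of 30 genes, of which 5 were lower (11.1%, against 11.4% of all probe sets) and 0 higher. The difference was below 0 for 35 of the 45 (77.8%, against 62.4% of all probe sets), with a median of -0.09. Ddx1, a DEAD-box protein of the tRNA ligase complex, had a log2 signal of 8.44, 8.37, 8.04, 8.63 and 8.33 in EAE arrays 1 to 5 and 8.84, 8.92 and 8.69 in control arrays 1 to 3. EAE array 4 came within 0.06 of control array 3, and the groups did not overlap. The difference was -0.53 (standard error 0.0779, adjusted p = 0.0124 from limma), and it did not pass without an array of batch 2 or 3. The dimmer probe set of Ddx1 was at -0.08 and was not called (adjusted p = 0.557 from limma).

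Dhx30, a DEAH-box helicase needed for the assembly of mitochondrial ribosomes, had a log2 signal of 7.43, 7.91, 7.56, 7.89 and 8.22 in EAE arrays 1 to 5 and 8.10, 8.17 and 8.35 in control arrays 1 to 3. EAE array 5 lay above control arrays 1 and 2, so the groups overlapped. The difference was -0.57 (standard error 0.117, adjusted p = 0.0298 from limma), and without the batch term it was not called. The dimmer probe set of Dhx30 was at -0.12 and was not called (adjusted p = 0.39 from limma). Ddx25, a helicase best known from male germ cells, was at 6.34, 6.53, 6.53, 6.57 and 6.68 in EAE arrays 1 to 5 and 6.92, 6.77 and 7.01 in control arrays 1 to 3 by its brighter probe set, with no overlap. That difference was -0.43 (standard error 0.0886, adjusted p = 0.0303 from limma). The calls of Dhx30 and of this Ddx25 probe set were lost without an array of batch 1 or 3. The dimmer probe set of Ddx25 was at -0.50 and was not called (adjusted p = 0.183 from limma). Its groups overlapped, and within batch 2 its difference was 0.09.

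Ddx5 and Ddx17 are close paralogs that act in splicing and as partners of transcription factors. Ddx5 had a log2 signal of 9.30, 8.94, 9.13, 9.11 and 8.83 in EAE arrays 1 to 5 and 9.81, 9.48 and 9.34 in control arrays 1 to 3, with EAE array 1 and control array 3 only 0.04 apart. Its difference was -0.42 (standard error 0.0901, adjusted p = 0.0348 from limma). Ddx17 was called lower by its dimmer probe set, of a type that can bind a gene family, at -0.32 (standard error 0.0716, adjusted p = 0.0376 from limma). Its EAE arrays ran from 7.85 to 8.57 and its control arrays from 8.28 to 8.82, so the groups overlapped. The brighter probe set of Ddx17 was at -0.27 and was not called (adjusted p = 0.115 from limma). The Ddx5 and Ddx17 calls were lost whichever array of batches 1 to 3 was left out, and Ddx17 also without the batch term. The other helicase probe sets lay between -0.50 and 0.20.

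**Figure D4:**
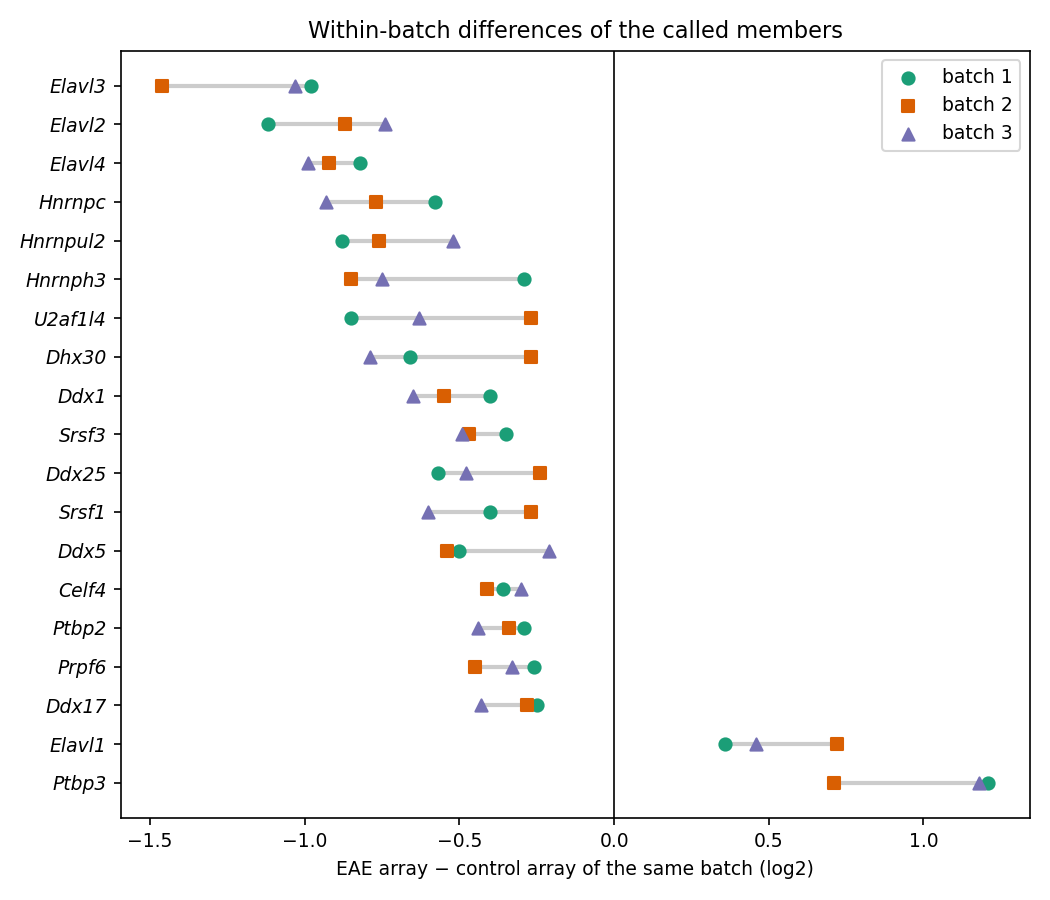
Difference between the EAE array and the control array of the same batch (log2) for the 19 called members, with 1 symbol for each of batches 1, 2 and 3 and a grey line from the lowest to the highest. All 19 members have the same sign in the 3 batches. Elavl3 reaches -1.46 in batch 2, and the helicase Dhx30 runs from -0.79 to -0.27.

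Agreement in sign within the 3 batches held for 19 of 19 called members, as the plot of within-batch differences shows, and these batches are the ones that gave the calls. EAE arrays 4 and 5 did not enter the batch-adjusted difference. Their mean lay on the same side of the control mean as the call for 19 of 19 members, and both arrays lay beyond every control array for 17 of 19 (89.5%), with Ddx17 and Dhx30 as the exceptions. For all 2438 called probe sets the same was found for 98.5% and 83.9%. These values use the same 3 control arrays as the calls.

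For 8 genes (Ddx1, Ddx17, Ddx25, Dhx30, Hnrnpul2, Ptbp2, Srsf1 and Srsf3) at least 1 probe set was called and another was not. They make 10 pairs, chosen because their calls differed, and are described by the signal of the called minus that of the other probe set in each array. For Srsf3 this value was -2.21 to -1.68 in EAE arrays and -1.61 to -1.21 in controls, and for Srsf1 against its second brightest probe set it was -0.25 to 0.20 and 0.37 to 0.51, with no overlap in either case. The pair of Srsf1 with its dimmest probe set, at 1.87 to 2.42 and 2.72 to 2.75, did not overlap either. That dimmest probe set had a mean signal of 4.68 in EAE and 4.61 in control arrays. The dimmer Dhx30 probe set was at 4.22 and 4.26, and the median over all probe sets was 6.12. A fall can hardly show at such low signals, so these pairs say little beyond the called probe set. The difference between EAE and control in this value had the same sign in batches 1, 2 and 3 for 7 of the 10 pairs: it was -0.46, -0.38 and -0.53 for Ddx1, -0.42, -0.10 and -0.83 for Dhx30, -0.71, -0.28 and -0.56 for Hnrnpul2 and -0.60, -0.29 and -0.74 for Srsf3, and the 3 pairs of Srsf1 were negative throughout. The pairs of Ddx17, Ddx25 and Ptbp2 had mixed signs. An exact permutation test over the arrays, which ignores the batches, gave its smallest possible p of 0.0179 for 3 pairs, or 0.0595 after adjustment over the 10. At least 4 pairs at that p were needed for any to pass, so this test could hardly call a difference. The files do not say which transcript forms the probe sets of a gene detect.

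**Figure D5:**
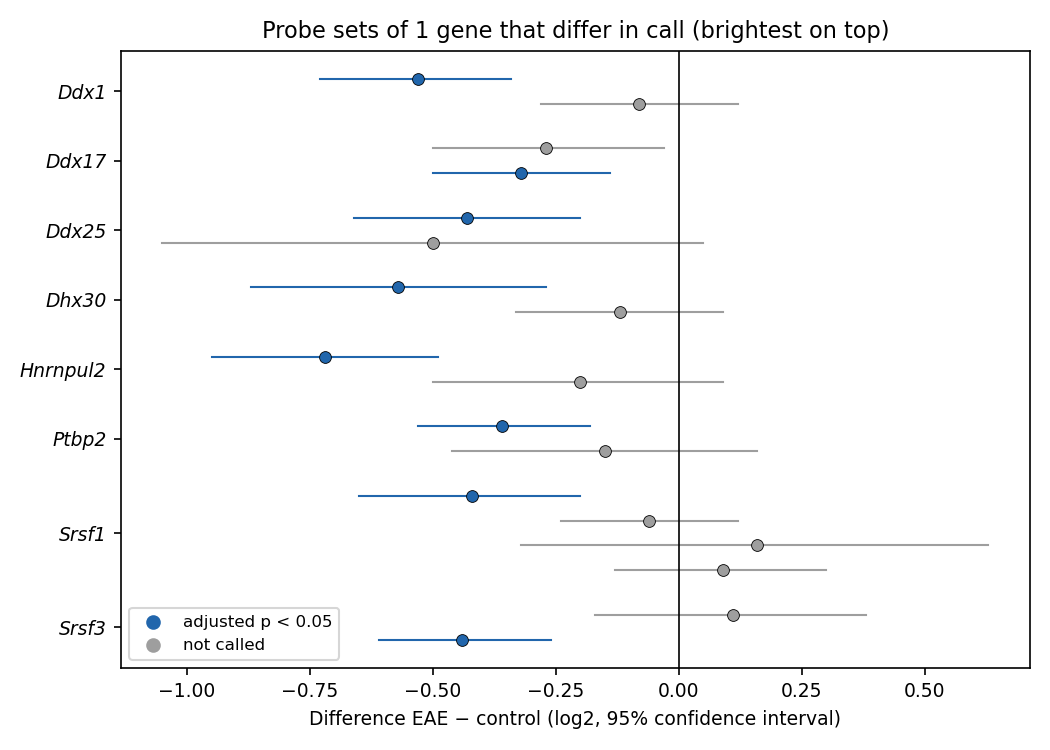
Difference between EAE and control (log2) with its 95% confidence interval for each probe set of the 8 genes whose probe sets differ in call, with the brightest probe set of a gene on top. Blue marks probe sets that were called lower and grey those that were not. For Srsf3 the called probe set is at -0.44 and the other at 0.11, while for Ddx17 they are at -0.32 and -0.27.

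Splicing and RNA-binding genes with other symbols were taken from a list of 88 gene symbols, of which 65 were measured. In this list 7 were lower (10.8%, against 13.5% of all genes) and 2 higher (3.08%, against 9.19%), with a median difference of -0.11 against -0.05 over all genes. The lower genes with the largest changes were Slu7, a factor of the second step of splicing (-0.65, adjusted p = 0.00777), Fubp1, a protein that binds single-stranded nucleic acid (-0.53, adjusted p = 0.0120), Puf60, which helps to recognise the 3′ splice site (-0.49, adjusted p = 0.0257), and Cdc5l, of the same complex as Prpf19 (-0.44, adjusted p = 0.0133, all from limma). Without EAE array 3 or control array 3 the list had 1 lower gene, Slu7, and 1 higher gene, Ifih1, and without EAE array 2 or control array 2 it had 2 lower and 1 higher. Without the batch term Fubp1 (adjusted p = 0.121), Puf60 (adjusted p = 0.0608) and Cdc5l (adjusted p = 0.161 from limma) were not called, and with batch as a random block, at an estimated correlation, Fubp1 (adjusted p = 0.068) and Cdc5l (adjusted p = 0.0803 from limma) were not. Eif4a1, a DEAD-box helicase of translation initiation, was higher at 0.39 (standard error 0.0849, adjusted p = 0.0350 from limma), and its paralog Eif4a2, named after its values were seen, was lower at -0.37 (standard error 0.0731, adjusted p = 0.0269 from limma). The EAE arrays of Eif4a1 lay above its controls (8.08 to 8.40 against 7.74 to 8.00), while those of Eif4a2 overlapped (10.51 to 10.93 against 10.79 to 11.03). Neither passed when any array of batches 1 to 3 was left out, and the call of Eif4a2 was also lost without the batch term at an adjusted p of 0.199 and with batch as a random block (adjusted p = 0.102 from limma).

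Ifih1 (MDA5), a helicase that senses double-stranded viral RNA and lies outside the Ddx and Dhx symbols, rose by more than any member. Its log2 signal was 6.85 to 7.34 in EAE and 5.02 to 5.20 in control arrays, a difference of 1.93 (standard error 0.0709, adjusted p = 0.000287 from limma). All 4 measured genes of a list of 7 for RNA sensing and interferon were higher, Ifih1 among them, against 9.19% of all genes. The others were the ubiquitin-like modifier Isg15 (2.90), the transcription factor Irf7 (1.31) and the RNA-activated kinase Eif2ak2 (0.50). Eif2ak2 was not called without an array of batch 2 or 3. The control means of the 4 genes were 5.09 to 5.33, below the median of 6.12 over all probe sets. Among the 45 Ddx and Dhx probe sets the highest difference was 0.20. This value does not cover helicases of these families that were not among the members.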

How the data were processed

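RNA of spinal cords was measured on 8 Affymetrix MG U74Av2 arrays (5 EAE, 3 control). The log2 values were deposited by the authors, who normalized them in Partek by RMA with quantile normalization and an adjustment for GC content. Versions are not given in the sources used here. RMA is computed over all arrays together and shrinks small differences of dim probe sets. The deposited values were not normalized again, and array medians were 6.08 to 6.12. All probe sets entered the fit whatever their brightness, except 66 spike-in and other control probe sets of the manufacturer.

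Groups and batches were taken from the labels. The pairing by batch comes from the labels, and the deviations of same-numbered arrays from their group means correlated at 0.302, -0.231 and 0.412. The model, run in limma 3.58.1 under R 4.3.3 with lmFit and eBayes, had treatment and batch as fixed terms (2 residual and 3.05 prior degrees of freedom), two-sided, with Benjamini-Hochberg adjustment over 12422 probe sets and a threshold of 0.05. Nothing says that the pools came from separate experiments beyond their batches, so p-values measure the spread between these arrays. Exact permutation tests used the 56 regroupings of 8 arrays. The procedure was also run on simulated data with the same noise level in every probe set. Real probe sets differ in their noise, so that run says nothing on how well moderation worked here.

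Of the probe sets 10833 had 1 symbol, 396 several and 1193 none. The Entrez identifiers of all 140 members were in the RefSeq gene table of GRCm38.p6. The files give no genome position for the probe sets. The members and lists were chosen with earlier results of these data known. Named were the 10 largest rises and falls called with no overlap and the same sign in 3 batches, up to 4 called members in each role group, every gene with called and not called probe sets, and up to 4 called genes in each direction of the list of other splicing genes. For that list and the markers the brightest probe set stood for a gene. Alternatives were the batch term, moderation, trend, robust prior, centring, normalization, array weights, brighter probe sets, a stricter threshold, 1 probe set a gene and each array left out. Arrays 1 and 4 were left out as an alternative chosen after seeing the data. Figures were drawn with matplotlib 3.10.9. The number of arrays limits the precision.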

Additional observations from a re-analysis of the deposited data

Results flagged for a closer look

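Among the named probe sets, 28 sets of 5 EAE arrays were examined for a single distant array, of which chance alone gives about 1 in 20, and 2 had one. EAE array 5 had a log2 signal of 6.93 for Prpf6, and EAE arrays 1 to 4 had 8.23 to 8.59. EAE array 3, the pool of day 17, had a log2 signal of 4.85 for the dimmest Srsf1 probe set, and the remaining EAE arrays had 4.61 to 4.67.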

How the results depend on the processing

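Of the 140 members 2 were higher and 17 lower. With unmoderated variances limma's linear model called 0 higher and 0 lower (5 and 20 at an unadjusted p under 0.05), and over all probe sets it called 1 higher and 0 lower. With 1 array left out in turn, the counts ran from 0 to 4 higher and from 4 to 17 lower: 4 and 9 without EAE or control array 1, 1 and 11 without array 2, and 0 and 4 without array 3. Of all probe sets 7.25% were then higher and 7.91% lower, 5.72% and 4.6%, and 4.19% and 1.81%. The 4 members still called without an array of batch 3 were Elavl2, Elavl3, Elavl4 and Hnrnpul2, which were called under 19 of 20 alternatives and lost only without moderation. Leaving out EAE array 4 or 5 changed nothing, because these arrays do not enter the batch-adjusted difference. Leaving out the EAE or the control array of batch 1, 2 or 3 gave the same result. The counts of alternatives given here therefore include repeats and are not counts of independent tests. Further quantile normalization gave 4 higher members, an adjusted p under 0.01 gave 1 higher and 5 lower, and the fit with no replicate block and without EAE arrays 1 and 4 gave 4 higher. Without the replicate block, that is, unpaired, 3 were higher and 15 lower, and Celf4, Ddx17, Dhx30, Prpf6 and Ptbp2 lost their call. Prpf6 and Ddx17 were lost under 13 alternatives each. None of the 18 named probe sets that were called changed sign under an alternative, and of their 358 values 247 stayed past the threshold and 111 did not. Of 190 values of the 10 named probe sets that were not called, 2 passed. Leaving out an array of batches 1 to 3 left 1 residual degree of freedom in place of 2. The loss of precision and the values of the array left out cannot be told apart there. The causes of these changes were not tested.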
